A study of Mus musculus with 3 samples.

Results

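The genes described are 9 regulators of helper T cell fate and their antagonists, Zfpm1, Gata3, Bcl6, Prdm1, Eomes, Maf, Tbx21, Ahr and Hlx. They were selected by symbol from the 50600 genes of the deposited tables, and not by a threshold on their measured values. The choice was made with earlier results of these data known. All 9 were found. The study sequenced RNA of primary T cells from C57BL/6NJ mice, and its 3 libraries are numbered in the labels as biological replicates 2, 3 and 4. The labels give no genotype or agent, and neither sex nor age; the protocol they name is one for differentiating CD4+ T cells. They assign a single donor identifier to all 3 libraries, and do not state whether these came from separate animals. The alignment names in the file headers carry Th0, the word activated and 00h. All libraries thus form 1 group with no second condition, and spreads and p-values measure only differences among these libraries.

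A CD4+ T cell that meets its antigen can take one of several helper fates, and each fate is known by a transcription factor. T-bet, encoded by Tbx21, drives the Th1 fate, GATA3 the Th2 fate and BCL6 the follicular helper fate. Most of these factors also repress a rival: T-bet and GATA3 oppose each other, and so do BCL6 and Blimp-1, encoded by Prdm1. FOG-1, encoded by Zfpm1, binds GATA factors and restrains GATA3 in T cells. Naive T cells hold GATA3 and BCL6 transcripts before any fate is taken, whereas T-bet is induced by activation and interferon signalling.

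Depth was between 28340521 and 59698913 gene counts per library. Replicate 2 stood apart from the other libraries in sex-linked genes, with the X-silencing RNA Xist at 151 TPM against 0.221 and 0.399 TPM in replicates 3 and 4, and the Y-linked helicase gene Ddx3y at 0.248 TPM against 80.0 and 72.3 TPM. These levels go against a single animal as the source of all 3 libraries. The labels number replicates 3 and 4 as separate biological replicates, but do not state whether they came from separate animals. Whether differences between replicates 3 and 4 are technical therefore cannot be told. None of the 9 regulators lies on a sex chromosome. TPM are counts divided by the summed exon length of the gene and scaled to a fixed total, so they allow genes to be compared with each other. A gene is called detected where each of the 3 libraries reached 1 TPM. Of protein-coding genes 46.1% were detected, and the count of detected genes in each list below stands beside that share. All 9 markers of CD4 T cells and all 7 of naive T cells were detected, and the CD4 list summed to between 10312 and 10519.5 TPM. Of the naive markers 1 of 7 was called as differing among libraries, beside 0.533% of all genes tested. It was the interleukin 7 receptor gene Il7r, at 875, 607 and 556 TPM in replicates 2, 3 and 4, with an edgeR goodness of fit adjusted p of 0.0449. In bulk RNA, fewer cells expressing a gene and less RNA per cell cannot be told apart.

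The cells held the antagonist Zfpm1 and its partner Gata3 at the highest levels among the 9 regulators, Bcl6 at an intermediate level, Prdm1, Eomes and Maf at a few TPM, Tbx21 and Ahr near 1 TPM, and almost no Hlx. Zfpm1, Gata3, Bcl6, Prdm1, Eomes and Maf, 6 of the 9, were detected, beside 46.1% of 21764 protein-coding genes. Tbx21 and Ahr reached 1 TPM in 2 of the 3 libraries and fell short in replicate 3. Without replicate 3 the number detected was 8.

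**Figure D1:**
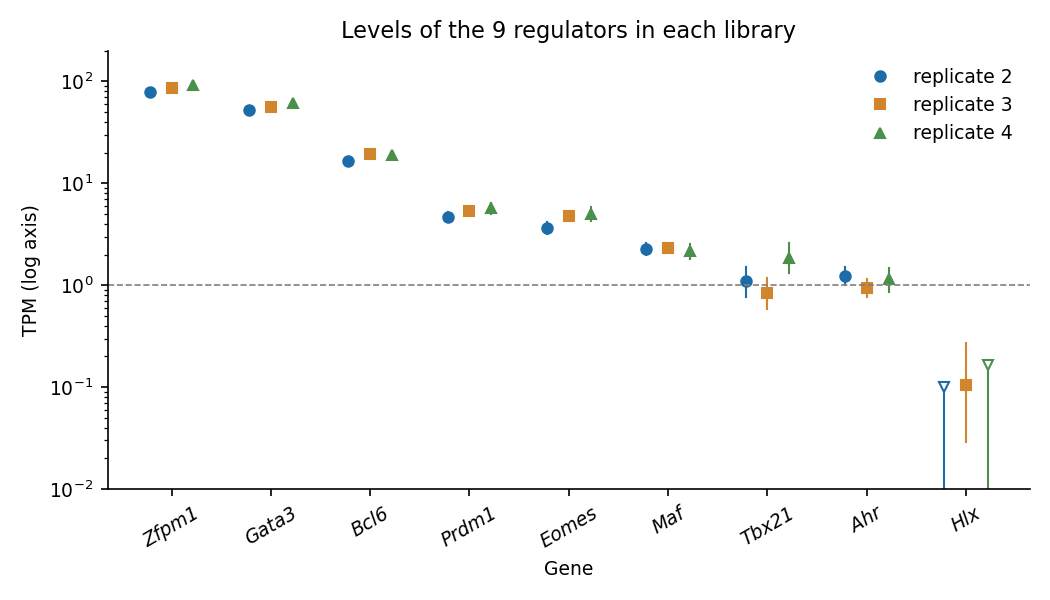
TPM on a log axis for each of the 9 genes, with 1 symbol per library, lines for the 95% exact Poisson interval of the count, and open triangles at the level of 3 counts where a library had 0. The dashed line marks 1 TPM. Zfpm1 and Gata3 lie above 50 TPM in every library, Tbx21 and Ahr lie on both sides of 1 TPM, and Hlx was counted in replicate 3 alone.

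Zfpm1 (ENSMUSG00000049577.15, mm10 chromosome 8, 122282141 to 122337251, plus strand) had 3621, 5029 and 2563 counts in replicates 2, 3 and 4, which are 78.5, 86.2 and 91.8 TPM. Its mean was 85.5 ± 6.66 TPM (SD, n = 3), higher than that of 89.97% of protein-coding genes. Gata3 (ENSMUSG00000015619.10, chromosome 2, 9857078 to 9890034, minus strand) had 2719, 3746 and 1927 counts, or 51.9, 56.6 and 60.8 TPM, with a mean of 56.4 ± 4.43 TPM. Both genes were lowest in replicate 2 and highest in replicate 4, and their ranges did not overlap.

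The antagonist's gene exceeded that of its target by a similar factor in each library. The ratio of Zfpm1 to Gata3, in counts per length, was 1.51 in replicate 2 (95% exact interval 1.44 to 1.59), 1.52 in replicate 3 (1.46 to 1.59) and 1.51 in replicate 4 (1.42 to 1.603). Over the libraries it was 1.52 ± 0.00767 (SD, n = 3), with all 3 intervals overlapping. On the log2(TPM + 0.1) scale Zfpm1 exceeded Gata3 by 0.60 ± 0.01. The sign was the same in 3 of 3 libraries; flipping signs exactly, as a two-sided permutation test, gave p = 0.25, the smallest that 3 libraries allow. The ratio rests on transcripts alone and says nothing of the amounts of FOG-1 and GATA3 protein.

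The 250 bases before the RefSeq start sites of Zfpm1 and Gata3, the highest of the genes and a regulator with its antagonist, are shown with those of Hlx, the lowest of the genes, to compare their base composition. CG dinucleotides are in capitals. The sequences are from RefSeq on GRCm38.p6 (mm10), read 5′ to 3′ on the strand of the gene.
Zfpm1, chr8:122281891-122282140, plus strand: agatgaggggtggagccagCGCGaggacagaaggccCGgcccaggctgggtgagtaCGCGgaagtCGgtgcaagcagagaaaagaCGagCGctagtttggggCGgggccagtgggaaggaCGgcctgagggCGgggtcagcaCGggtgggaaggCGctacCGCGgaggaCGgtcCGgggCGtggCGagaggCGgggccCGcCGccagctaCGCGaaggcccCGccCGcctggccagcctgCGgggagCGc
Gata3, chr2:9878601-9878850, minus strand: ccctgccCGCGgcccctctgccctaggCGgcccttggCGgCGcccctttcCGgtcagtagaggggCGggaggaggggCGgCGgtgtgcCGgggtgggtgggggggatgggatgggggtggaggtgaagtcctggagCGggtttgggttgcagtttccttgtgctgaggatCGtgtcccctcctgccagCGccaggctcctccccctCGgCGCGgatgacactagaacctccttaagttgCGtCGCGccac
Hlx, chr1:184732494-184732743, minus strand: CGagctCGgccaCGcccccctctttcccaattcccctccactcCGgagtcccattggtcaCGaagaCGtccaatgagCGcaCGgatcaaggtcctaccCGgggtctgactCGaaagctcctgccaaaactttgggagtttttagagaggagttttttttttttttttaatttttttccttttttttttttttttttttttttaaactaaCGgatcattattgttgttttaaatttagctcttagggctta

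The Zfpm1 window held 28 CG dinucleotides, more than 89.9% of 20095 such windows of protein-coding genes, and the Gata3 window held 19, more than 72.9%. The Hlx window held 11, near the median of 10 over all windows, and included a long run of T. Windows matched 7 of the 9 genes, with 2 for Bcl6, and Maf and Ahr were not matched. The Eomes window, with 8 CG, held the fewest of the 8, although Eomes was above Tbx21 and Hlx in level. The RefSeq start of Gata3 lies 11433 bases inside the outer end of the gene in the deposited tables, and that of Prdm1 69752 bases, since those tables merge all annotated starts.

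Motifs were searched on both strands of the same windows. The letters GCGTG, the core that the aryl hydrocarbon receptor recognises with its partner ARNT, were present for Hlx, Zfpm1 and Prdm1, against 34.8% of all windows. The letters TTCNNNGAA, the core of STAT sites, were present in both windows of Bcl6, against 6.61% of all windows. AGATAA or TGATAA, bound by GATA factors, and GGTGTGA or AGGTGTG, which overlap each other and are bound by T-box factors, were in none of the 8, against 14.1% and 6.74%. A match in these letters is a description of the sequence and not evidence of binding, and the absence of one concerns this window alone.

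Among the GATA and FOG genes, Gata1 was the only further one detected. Gata1, the erythroid and megakaryocytic GATA factor that also binds FOG-1, had 299, 393 and 190 counts, or 9.31, 9.68 and 9.77 TPM, so Gata3 exceeded it 5.88 ± 0.323 times (SD, n = 3). Of the 9 megakaryocyte and erythroid markers, which include Gata1, 2 were detected and the list summed to between 14.3 and 17.2 TPM. The other one detected was Itga2b, at 3.73, 3.01 and 3.75 TPM, and the globin gene Hbb-bs was at 3.56, 1.49 and 0.980 TPM. The platelet genes Pf4 and Gp9 and the erythroid repressor gene Gfi1b had 0 counts, and Klf1, the erythroid factor gene, had 5, 1 and 7. Gata4, Gata5, Gata6 and Zfpm2, which encodes FOG-2, had 0 counts, where 3 pooled counts would be between 0.01596 TPM for Zfpm2 and 0.0249 TPM for Gata6, and Gata2 had 1, 3 and 0 counts. In all, 3 of the 8 GATA and FOG genes were detected.

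Of 10 genes of the Th2 list, 4 were detected, a share near the 46.1% of protein-coding genes. Those detected encode a signal transducer and receptors. Stat6, the transducer of interleukin 4, stood at 387 ± 17.3 TPM and Il4ra, its receptor chain, at 334 ± 8.75 TPM. The Th2 chemokine receptor genes Ccr8 and Ccr4 were at 4.80 ± 0.980 and 1.25 ± 0.383 TPM. Il5, Il13, Il24 and Ptgdr2 had 0 counts, and 3 pooled counts of Il13 would be 0.0659 TPM. Il4 had 1 count in all, in replicate 3.

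Bcl6 (ENSMUSG00000022508.5, chromosome 16, 23965052 to 23988852, minus strand), which represses genes of the other helper fates, had 1475, 2173 and 1015 counts, or 16.7, 19.5 and 19.0 TPM. Prdm1 (ENSMUSG00000038151.13, chromosome 10, 44437177 to 44528501, minus strand), whose product Blimp-1 promotes effector and plasma cell differentiation, had 343, 500 and 253 counts, or 4.67, 5.38 and 5.69 TPM. Both were lowest in replicate 2. Bcl6 stood above Prdm1 in every library, without overlap.

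The ratio of Bcl6 to Prdm1 was 3.58 in replicate 2 (95% exact interval 3.18 to 4.04), 3.62 in replicate 3 (3.28 to 3.996) and 3.34 in replicate 4 (2.91 to 3.85). It was 3.51 ± 0.151 on average (SD, n = 3), and the 3 intervals overlapped. The balance of this opposing pair thus differed among libraries by less than its counting error. Gata3 exceeded Bcl6 3.07 ± 0.150 times, with ratios between 2.90 and 3.198.

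**Figure D2:**
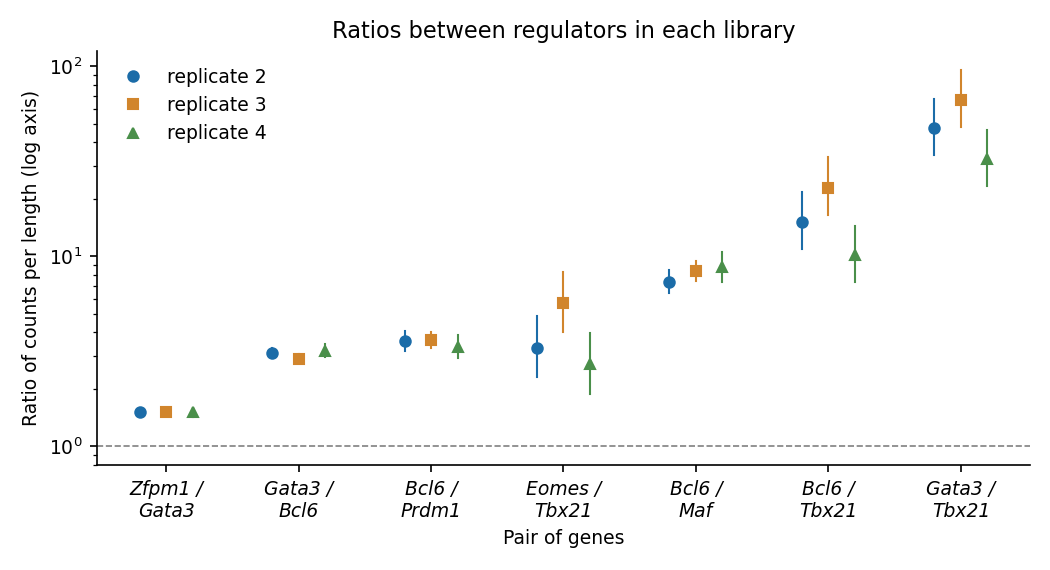
Ratios of counts per exon length between pairs of regulators, on a log axis, with 1 symbol per library and lines for the 95% exact interval from the counts of the pair. The dashed line marks equal levels. The ratio of Zfpm1 to Gata3 lies between 1.51 and 1.52, while the 3 pairs with Tbx21 spread most, highest in replicate 3 and lowest in replicate 4.

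The partners of BCL6 and Blimp-1 were abundant. Of 7 genes of BCL6 relatives and corepressors, 6 were detected, with the corepressor genes Ncor1 at 183 ± 6.66 TPM and Bcor at 99.1 ± 5.87 TPM. The paralog Bcl6b had 4, 0 and 1 counts. All 8 genes of Blimp-1 partners and upstream regulators were detected, led by the histone methyltransferase gene Ehmt2 at 164 ± 5.37 TPM and including Bach2, a repressor of Prdm1, at 85.9 ± 9.51 TPM. In the PRDM family 5 of 6 were detected, and Prdm1 was below Prdm2 (98.6 ± 0.421 TPM), Prdm4 (38.5 ± 1.85 TPM), Prdm15 and Prdm10. Prdm1 was thus the lowest of the 5 detected.

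Of 11 genes of the follicular helper list, 8 were detected, beside 46.1% of protein-coding genes. The interleukin 6 receptor genes Il6ra and Il6st stood at 226 ± 3.88 and 149.8 ± 7.32 TPM, the inhibitory receptor gene Btla at 132 ± 10.96 TPM and the costimulatory receptor gene Icos at 39.2 ± 4.61 TPM. Il21, the cytokine of these cells, had 4, 2 and 2 counts, and Ascl2, a factor that induces Cxcr5, had 4, 0 and 2. Of the 7 effector genes associated with Blimp-1, only Lag3 and Tigit, which encode inhibitory receptors, were detected, at 3.49 ± 0.227 and 1.898 ± 0.689 TPM, and Il10 had 0, 2 and 0 counts.

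Bcl6 and Prdm1 are also known in B cells. The B cell markers summed to 44.5, 49.6 and 34.6 TPM in replicates 2, 3 and 4, with 5 of 7 detected. This sum was lowest in replicate 4, and Bcl6 and Prdm1 in replicate 2. Of 4 germinal centre markers only S1pr2, which other lymphocytes also express, was detected, while Rgs13 had 0 counts. Of 5 plasma cell markers only Mzb1 was detected, Tnfrsf17 had 0 counts, and the list summed to between 1.82 and 2.37 TPM. The part of B cells in the levels of Bcl6 and Prdm1 was not tested.

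Eomes (ENSMUSG00000032446.14, chromosome 9, 118478212 to 118486132, plus strand), the T-box factor of memory and cytotoxic cells, had 199, 333 and 167 counts, or 3.64, 4.81 and 5.04 TPM. Tbx21 (ENSMUSG00000001444.2, chromosome 11, 97098071 to 97115331, minus strand) had 36, 35 and 37 counts, or 1.10, 0.845 and 1.87 TPM. Eomes was lowest in replicate 2 and Tbx21 highest in replicate 4, where 37 counts came from the shallowest library. The interval of the Tbx21 count in replicate 4, from 1.31 to 2.57 TPM, did not overlap that in replicate 3, from 0.589 to 1.18 TPM, but both overlapped that in replicate 2.

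Eomes exceeded Tbx21 in every library, by 3.31 times in replicate 2 (95% exact interval 2.31 to 4.86), 5.697 times in replicate 3 (4.01 to 8.32) and 2.70 times in replicate 4 (1.88 to 3.97). Gata3 exceeded Tbx21 by 47.2, 66.9 and 32.6 times in replicates 2, 3 and 4. Of the ratios given here, those with Tbx21 spread most among libraries, and the mean of Tbx21 fell from 1.27 to 0.972 TPM without replicate 4. The opposing pair of GATA3 and T-bet was therefore far to the side of Gata3 in transcripts in all 3 libraries, by a factor known only within the range given.

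The T-box family held higher transcripts than the 2 factors of T cell fate. Of 17 family genes, 3 were detected, Tbx6, Mga and Eomes. Tbx6, known for its role in mesoderm, was at 53.1, 61.8 and 65.8 TPM, and Mga, a partner of MAX, at 49.7 ± 1.86 TPM. Neither shares exon sequence positions with another gene of the tables. A total of 9 family genes had 0 counts, among them Tbr1, the closest relative of Eomes, for which 3 pooled counts would be 0.0145 TPM. Tbx6 exceeded Eomes in every library without overlap.

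Of 13 genes of the Th1 and T-box list, 8 were detected, beside 46.1% of protein-coding genes. Stat4, the transducer of interleukin 12, stood at 49.5 ± 1.24 TPM, the receptor chain gene Il2rb at 46.3 ± 1.81 TPM, Il18r1 at 44.8 ± 0.856 TPM and Fasl at 13.5 ± 1.20 TPM. Il12rb2, the inducible chain of the interleukin 12 receptor, fell short at 0.661, 0.396 and 0.760 TPM, and Ifng had 0, 3 and 0 counts. Of 11 genes of the list tested, 0 were called as differing among libraries by edgeR, beside 0.533% of all genes tested. Ccl5 and Nkg7, 2 of the 11, had an unadjusted p under 0.05, beside 4.10% of all genes, with edgeR adjusted p of 0.162 and 1.00 (rounded). The chemokine gene Ccl5 and the cytotoxic granule gene Nkg7 were highest in replicate 3, at 9.198 and 8.41 TPM against at most 3.32 and 4.49 TPM elsewhere, where Tbx21 was lowest. The chemokine receptor gene Cxcr3, at 1.58, 1.84 and 2.54 TPM, was highest in replicate 4, and Klrg1, with 8, 5 and 8 counts, was lowest in replicate 3 and highest in replicate 4 in TPM, as Tbx21 was.

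NK cells also express Eomes and Tbx21. The 7 NK cell markers summed to 41.9, 42.4 and 45.9 TPM in replicates 2, 3 and 4, of which Klrd1 made up 29.4, 30.3 and 28.5 TPM, and 4 of the 7 were detected. Ncr1, a defining receptor gene of NK cells, was at 0.690, 0.858 and 0.977 TPM. None of the 7 was called as differing among libraries by edgeR, nor had any an unadjusted p under 0.05, beside 0.533% and 4.10% of all genes tested. The 7 markers did not follow one order. Tyrobp, an adaptor gene of NK and myeloid cells, was highest in replicate 4, where Tbx21 was highest, at 6.77 TPM against 3.19 and 3.15 TPM. The NK receptor gene Klre1 was lowest there, with 21, 17 and 2 counts. Of the 2 CD8 T cell markers, Cd8b1 was detected, at 36.5, 33.9 and 30.5 TPM, while Cd8a was at 0.334, 0.578 and 0.690 TPM. Of the 5 markers of NKT and gamma-delta T cells only Trdc was detected, at 8.47 ± 1.77 TPM. Of the 5 dendritic cell markers 0 were detected. The part of NK cells and of these other cells in the Eomes and Tbx21 levels was not tested.

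T-bet is induced by activation, so the list of antigen-experienced or activated T cells was set beside Tbx21. All 6 of its genes were detected, summing to 135, 113 and 125 TPM in replicates 2, 3 and 4. Il2ra, the inducible chain of the interleukin 2 receptor and also a marker of regulatory T cells, was at 3.48, 2.83 and 5.49 TPM, in the same order among libraries as Tbx21, with an edgeR p of 0.000713 and an adjusted p of 0.115. The early activation gene Cd69 was at 52.6, 44.6 and 41.2 TPM, lowest in replicate 4. The list had 0 of 6 genes called, beside 0.533% of all genes tested, and its part in the Tbx21 level was not tested.

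Maf (ENSMUSG00000055435.6, chromosome 8, 115682942 to 115707794, minus strand), which encodes c-MAF, an activator of interleukin 4, 10 and 21 genes, had 247, 318 and 142 counts, or 2.28, 2.32 and 2.16 TPM. It was the most even of the 8 genes with over 10 counts per library, with a coefficient of variation of 3.61% where counting error alone would give about 6.82%. Bcl6 exceeded it 8.18 ± 0.749 times and Prdm1 2.34 ± 0.290 times (SD, n = 3). Of the 5 genes associated with c-MAF, Icos and Tigit were detected and the 3 interleukin genes had at most 4 counts in any library. In its family the small MAF genes Mafk, at 60.5 ± 2.98 TPM, Mafg, at 17.4 ± 0.124 TPM, and Maff, at 3.15 ± 0.193 TPM, were above Maf.

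Ahr (ENSMUSG00000019256.17, chromosome 12, 35497974 to 35535038, minus strand), the ligand-activated receptor of Th17 and regulatory programmes, had 101, 97 and 56 counts, or 1.24, 0.945 and 1.14 TPM. The intervals of its counts, from 1.01 to 1.51, 0.767 to 1.15 and 0.861 to 1.48 TPM, overlapped. The proteins that hold or pair with the receptor were encoded at far higher levels, with Arnt at 45.6 ± 3.17 TPM and the cochaperone gene Ptges3 at 100.3 ± 12.6 TPM. Arnt2 had 0 counts. The chaperone gene Hsp90ab1 was at 2221, 3457 and 3526 TPM in replicates 2, 3 and 4.

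Of the 6 targets of the receptor, Tiparp alone was detected, at 19.3 ± 1.39 TPM. Cyp1a1, its classical target, had 1, 4 and 2 counts, Cyp1b1 had 1, 0 and 0, the repressor gene Ahrr had 0, 13 and 2, and Il22 had 0. Nqo1 was at 0.929, 0.580 and 0.969 TPM.

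Other cells that use these factors were checked by their markers. Regulatory T cells, which express Prdm1, Maf and Ahr, had all 6 markers detected and, beside 0.533% of all genes tested, 0 of 6 called as differing among libraries. Their sums were 131, 125 and 125 TPM in replicates 2, 3 and 4, of which the receptor gene Tnfrsf18 made up 99.5, 93.3 and 92.2 TPM. Foxp3, the defining factor of these cells, was at 5.12, 7.45 and 6.98 TPM and Ikzf2 at 1.33, 1.75 and 1.58 TPM. Both were lowest in replicate 2, as Prdm1 was. The other markers of the list were not: Tnfrsf18, Ikzf4 and Ctla4 were highest in replicate 2, and Il2ra was lowest in replicate 3. The macrophage list, whose cells express Maf and Ahr, summed to between 15.1 and 15.9 TPM with 2 of 6 detected and Cd14 at 0 counts. For group 2 innate lymphoid cells, which depend on GATA3, 1 of 5 markers was detected, Areg and Arg1 had 0 counts and the sum was at most 3.82 TPM. Of mast cell and basophil markers 0 of 6 were detected, and their sum was at most 0.329 TPM. The part of regulatory T cells and macrophages in the levels of Prdm1, Maf and Ahr was not tested.

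Hlx (ENSMUSG00000039377.7, chromosome 1, 184727140 to 184732619, minus strand), a homeobox factor that works with T-bet on Ifng, had 0, 4 and 0 counts. The 4 counts of replicate 3 are 0.105 TPM (95% exact Poisson interval 0.0287 to 0.270), and 3 counts would be 0.165 TPM in replicate 4, the shallowest library. Replicate 3 is the deepest, and its level lay under that limit of replicate 4 and just above that of replicate 2, so a difference was not detectable at this depth. Pooled over libraries, Tbx21 exceeded Hlx 24.7 times per length, with a 95% exact interval from 9.38 to 92.4.

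Over all 36 pairs of the 9 genes, 34 did not overlap in TPM between their ranges, and 35 had the same sign in all 3 libraries on the log2(TPM + 0.1) scale. Each of the 35 had an exact permutation p of 0.25 by the same test and a Benjamini-Hochberg adjusted p of 0.257, so no pair could pass 0.05. In descending order of mean level the genes were Zfpm1, Gata3, Bcl6, Prdm1, Eomes, Maf, Tbx21, Ahr and Hlx. Prdm1 and Eomes overlapped in range, although Prdm1 was higher in 3 of 3 libraries, by 0.23 ± 0.11 on the log2 scale. Tbx21 and Ahr overlapped and had no common sign, with a difference of 0.12 ± 0.47 and an exact permutation p of 1. The place of every other gene held in each library.

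Differences among the libraries were tested with edgeR's goodness of fit to a single mean, over the 13498 genes whose mean count reached 10. The dispersion trend came from the same 3 libraries, so a gene was called only where it varied more than genes of similar count. At an adjusted p of 0.05, 0.533% of genes tested were called, and of the regulators 0 of the 8 tested were. At an unadjusted p of 0.05 it was also 0 of 8, against 4.10% of all genes. Hlx was too low to be tested. The smallest edgeR p among them was 0.151, for Tbx21, with an adjusted p of 1.00 (rounded). This does not show that the levels were equal, since for Tbx21 the log2 range among libraries was 1.12 and the counts were few. Zfpm1, Gata3 and Bcl6 had coefficients of variation in TPM of 7.79%, 7.85% and 8.02%. Counting error alone would give about 1.72%, 1.98% and 2.66% for these genes, so they varied beyond it without being called. The common biological coefficient of variation, fitted over all genes tested, was 9.24%. Spread beyond counting error is thus not particular to these regulators.

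The range of log2 CPM, scaled by TMM, from the lowest to the highest library was 0.28 for Zfpm1, 0.28 for Gata3, 0.24 for Bcl6 and 0.34 for Prdm1. It was 0.52 for Eomes, 0.07 for Maf and 0.37 for Ahr. The median over the 8 genes was 0.31, and over all genes tested 0.19. The cause of this difference was not tested. Zfpm1, Gata3, Prdm1 and Eomes, 4 of the 8, were lowest in replicate 2 and highest in replicate 4, as were 19.6% of all genes tested. Replicate 2 is the library that differs in sex-linked genes, and the means without it were 89.0 TPM for Zfpm1, 58.7 TPM for Gata3 and 4.93 TPM for Eomes. The part of sex in these differences was not tested.

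**Figure D3:**
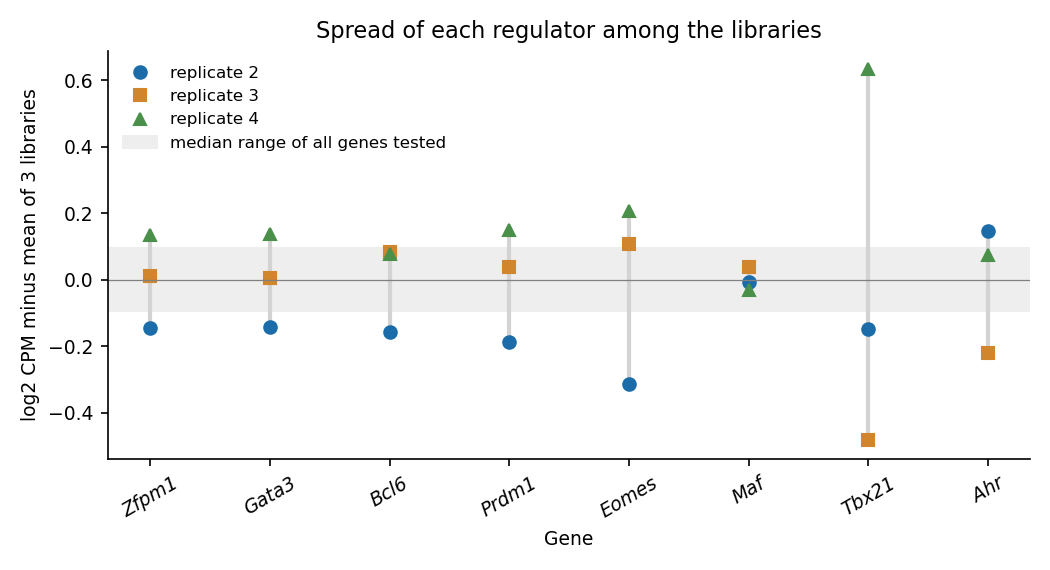
Log2 CPM of each regulator in each library, minus the mean over the libraries, for the 8 genes with enough counts. Grey lines span the lowest to the highest library, and the shaded band has the width of the median range of all genes tested, 0.19. Maf lies inside the band, and Tbx21 has the widest span, 1.12.

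Of 70 companion genes tested (relatives, partners and programme genes of the 9 regulators), 1 was called as differing among libraries, beside 0.533% of all genes tested. This gene was Hsp90ab1, with an adjusted p of 0.0018 by edgeR's goodness of fit. It was lowest in replicate 2. Of 108 companion genes in all, 60 were detected, beside 46.1% of protein-coding genes. Among 15 receptors and transducers of polarising signals, 14 were detected, led by Stat6, Il4ra, Il6ra and Stat5b, the last at 207 ± 9.03 TPM. The exception was Il12rb2.

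By level over the 3 libraries, the companion gene nearest to Zfpm1 was the interferon γ receptor gene Ifngr2, at a mean absolute difference of 0.09 on the log2(TPM + 0.1) scale, and to Gata3 the transducer gene Stat5a, at 0.06. Mafg was nearest to Bcl6, at 0.11, and Cxcr5 to both Prdm1 and Eomes, at 0.19 and 0.29. Cxcr3 was nearest to Maf, at 0.35, Il18rap to Tbx21, at 0.48, Ccr4 to Ahr, at 0.20, and Il10 to Hlx, at 0.03. With 3 libraries of a single group these are likenesses of level alone.

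Counting by strand separated the regulators from the antisense genes annotated over them. Maf shares 440 exonic bases with the antisense gene Gm15655, which had 0 counts, Eomes 118 with Gm33460, at 0.617 ± 0.440 TPM, and Gata3 155 with genes of the opposite strand, of which Gm13256 was at 1.24 ± 0.212 TPM. On its own strand Gata3 shares 77 of 3978 exonic bases with 9230102O04Rik, so reads falling there are ambiguous between the genes. 9230102O04Rik had 0 counts. The other 8 regulators share no exonic base with a gene of their own strand.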

How the data were processed

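RNA of 3 libraries of mouse T cells was measured. Per the file headers, the authors counted read pairs per gene with featureCounts 1.4.6-p4 over exons of GENCODE vM13 on mm10, by reverse strand, with both ends aligned, and deposited raw counts. Settings of the aligner: not given in the sources used here. Assay labels read total RNA-seq, whereas the library protocol is for poly(A) RNA.

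From these counts and the exon lengths TPM were calculated. Symbols came from a name table (50376 of 50600 genes matched), biotypes from GENCODE vM21, a later release. The 14 companion and 15 marker lists were described by counts at 1 TPM. Variation among libraries used edgeR 4.0.16 with R 4.3.3 (intercept-only negative binomial model, TMM, trended dispersion, Benjamini-Hochberg). The procedure was also run on counts simulated from the same kind of model with the dispersion fitted here. That run cannot show whether the model holds for these libraries. Log2 CPM used a prior count of 2, contrasts a pseudocount of 0.1, and intervals are 95% and exact, covering counting error only. Python 3.11.15, scipy 1.17.1 and statsmodels 0.14.6 were used, with DESeq2 1.42.0 for alternative size factors.

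The regulators and lists were chosen with earlier results of these data known. Named genes were the 9 regulators, the 4 highest detected genes of each list, genes called, genes at 0 counts and the nearest companion in level. Others, such as Klf1, Ifng, Il12rb2, Klrg1, Klre1, Tyrobp, Foxp3, Ikzf2, Tnfrsf18, Il2ra, Cd69, Ccl5 and Nkg7, were chosen after their values were seen. The same holds for Ikzf4, Ctla4, Itga2b, Hbb-bs and Cd8a. Some list genes are counted but not reported here by name.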

Additional observations from a re-analysis of the deposited data

How the results depend on the processing

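The count of regulators called as differing among libraries was 0 under DESeq2 size factors, upper quartile scaling, library size alone, no filter, a mean count of 50 or more (where Tbx21 was not tested), a common dispersion and each replicate left out. Tbx21 came nearest, with an unadjusted p of 0.0095 and an adjusted p of 0.182 under a common dispersion, and in its other 8 fits its adjusted p rounded to 1.00 (edgeR goodness of fit). The count over all genes, 72, was 312 under a common dispersion and between 35 and 46 with a replicate left out. The cause was not tested. With 2 libraries the fit has a single degree of freedom per gene.

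The number of pairs with a common sign stayed at 35 of 36 under pseudocounts of 0.01 and 1 and was 35 to 36 with a replicate left out, and that of pairs without overlap was 34 to 35. Detected regulators were 8 at 0.5 TPM, 6 at 2 TPM and 6 to 8 with a replicate left out. TPM over protein-coding genes alone were 1.08 times as high for all 9, and without genes under 200 bases 1.03 to 1.04 times. TMM-scaled RPKM were 0.279 to 0.280 times the TPM, a change of scale. No paired analysis was possible because there is 1 group. Depth limits Tbx21, Ahr and Hlx most, at 108, 254 and 4 pooled counts.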

Other observations

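Of 29 genes of the deposited tables that overlap a regulator or start within 50 kb of one, 6 were detected (1 TPM in each library) and 15 had 0 counts. Of all 50600 genes 11820 were detected, so the neighbours' share lay near that of all genes. Gm45353, a long intergenic non-coding gene on chromosome 8 from 122339171 to 122343100, on the strand of Zfpm1 and shortly beyond its end, had 44, 77 and 44 counts in replicates 2, 3 and 4, or 17.8 ± 4.34 TPM (SD, n = 3) over only 252 exonic bases. Zc3h18, a zinc finger gene further along the same strand, was at 59.3 ± 1.07 TPM. Tbkbp1, the neighbour of Tbx21, was low like it, at 0.499 ± 0.203 TPM with 23, 22 and 23 counts, while Osbpl7, on the other side of Tbx21, was at 47.7 ± 3.17 TPM. Golga4, which starts 28055 bases from the start of Eomes, was at 42.0 ± 0.548 TPM. The non-coding gene 4933432G23Rik, upstream of Eomes, and Gm35028, near Prdm1, had 0 counts. No gene overlapped Ahr or started within 50 kb of it.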
